A study of Mus musculus with 4 samples.

Results

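The genes described here were 10 germline genes, *Dazl*, *Ddx4*, *Sycp1*, *Sycp3*, *Mael*, *Tex101*, *Hormad1*, *Tdrd1*, *Asz1* and *Stra8*, chosen by name because their promoters are silenced by DNA methylation in somatic cells. All 10 were found among the 55602 genes of the deposited bulk table. RNA-seq was made from day 12-JB1 cells, that is, hybrid mouse embryonic stem cells (ESCs) with a JF1 mother and a C57BL/6 (B6) father after 12 days of differentiation toward neural precursor cells (NPCs). There were 2 wild-type libraries and 2 libraries of *Zfp57*-/- cells, a mutant ESC line derived from JB1 that lacks the zinc finger protein ZFP57, which binds methylated imprinting control regions. Both lines had been kept as ESCs with the Gsk3 inhibitor CHIR99021 at 3 µM and were then cultured with the Sonic hedgehog inhibitor cyclopamine at 1 µM from day 2 to day 10. The mutant libraries came from a single derived line, so that *Zfp57* genotype and other differences between the lines cannot be told apart. The comparison asked whether genes normally kept silent outside the germline were transcribed in the mutant cells at day 12.

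Genes of this kind commonly have CpG-rich promoters that in somatic lineages become methylated around implantation, and their RNA is found mainly in germ cells. In pluripotent cells the same promoters are also held by repressor complexes that contain MGA, MAX, E2F6 and the Polycomb protein PCGF6, and MGA and MAX bind the E-box CACGTG. The encoded proteins act in germ cell RNA control (DAZL, DDX4), in the synaptonemal complex and its axes (SYCP1, SYCP3, HORMAD1), in transposon silencing by piRNAs (MAEL, TDRD1, ASZ1), at the onset of meiosis (STRA8) and on the germ cell surface (TEX101).

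Total bulk counts per library ranged from 7663520 to 10337082, and 3 counts, taken as the detection floor, corresponded to between 0.290 and 0.391 CPM (counts scaled to library size). *Zfp57* itself was counted 392 and 249 times in the wild-type and 158 and 144 times in the *Zfp57*-/- libraries, with a log2 difference of -1.19 ± 0.32 (SE, edgeR adjusted p = 0.0225). Counts per gene include exons outside the deletion, so this does not check the knockout. Many markers of the *Zfp57*-/- libraries, though not all, went against the label NPC. Of 15 pluripotency genes, 14 were higher in the *Zfp57*-/- libraries, and their summed level was 2236 to 2333 CPM against 168 to 292 in wild-type. Of 10 neural progenitor genes, 6 were lower and none was higher. The 2 mutant libraries are therefore called day 12-JB1 *Zfp57*-/- cells below. In bulk RNA, more cells of a type and more RNA per cell cannot be told apart.

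The promoters are shown first because most of them hold the E-box of the repressors named above. Each gene was matched to a window of 300 bases in RefSeq's table (GRCm38.p6), 250 bases before and 50 after the start nearest to that of the deposited table. For 7 of them both starts lay within 18 bases. For *Ddx4* they were 165 bases apart, for *Stra8* 785 and for *Tex101* 4625. The letters CACGTG, a palindrome read on both strands, were found in 6 of the 10 windows (60%) at 8 places. They were found in 7.15% of all 32841 windows of that length and in 9.69% of the 12582 windows of genes tested between genotypes. The lines below give 30 bases around each place, read 5′ to 3′ on the strand of the gene, with the E-box in capitals.
Ddx4, chr13:112652322-112652351, minus strand: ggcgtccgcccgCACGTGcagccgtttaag
Sycp1, chr3:102936177-102936206, minus strand: tagagaacccggCACGTGggaagggaaatc
Sycp3, chr10:88459511-88459540, plus strand: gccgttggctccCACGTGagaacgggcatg
Sycp3, chr10:88459532-88459561, plus strand: acgggcatggagCACGTGctaggaggcggg
Hormad1, chr3:95559608-95559637, plus strand: caaagggtgcgcCACGTGccagtgacagtt
Hormad1, chr3:95559645-95559674, plus strand: atgcgcactgcgCACGTGctgaccggagcg
Tdrd1, chr19:56826186-56826215, plus strand: tggggctgcgcgCACGTGggagtaaactgc
Mael, chr1:166238950-166238979, minus strand: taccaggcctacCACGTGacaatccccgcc

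The E-boxes outside *Mael* all began within 94 bases before the RefSeq start, the nearest 11 bases before that of *Tdrd1*, and the one of *Mael* began 223 bases before it. *Sycp3* and *Hormad1* held a pair each. The *Ddx4* site lay inside the gene as the deposited table bounds it. The whole windows of *Stra8* and *Tex101* also lay inside their genes, and the bases at the deposited starts of these genes were not examined. The letters were not in the windows of *Dazl*, *Tex101*, *Asz1* and *Stra8*. Longer stretches of *Hormad1*, which has a pair of E-boxes, and of *Dazl* and *Stra8*, which have none, are given below to show their CpG content.
Hormad1, chr3:95559577-95559676, plus strand, 9 CpGs in 100 bases: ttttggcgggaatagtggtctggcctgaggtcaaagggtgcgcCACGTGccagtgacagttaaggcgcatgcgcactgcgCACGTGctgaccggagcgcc
Dazl, chr17:50293637-50293736, minus strand, 9 CpGs in 100 bases: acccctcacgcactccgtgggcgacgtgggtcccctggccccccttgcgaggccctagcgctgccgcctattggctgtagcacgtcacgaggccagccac
Stra8, chr6:34920848-34920947, plus strand, 1 CpG in 100 bases: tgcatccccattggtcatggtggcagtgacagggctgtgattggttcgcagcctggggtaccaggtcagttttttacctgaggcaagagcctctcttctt

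The 10 windows held between 10 (*Stra8*) and 38 (*Ddx4*) CpG dinucleotides, with a median of 20.5. The median was 7 over all windows and 20 over the windows of tested genes, so the CpG number was above that of all windows and close to that of tested genes. The observed to expected CpG ratio ran from 0.430 in *Stra8* to 0.978 in *Ddx4*, with a median of 0.756, against 0.384 in all windows and 0.738 in those of tested genes. The E2F core GCGGGA was in 5 of the 10 windows (*Ddx4*, *Sycp1*, *Sycp3*, *Mael* and *Hormad1*) and in 35.0% of the windows of tested genes. The ZFP57 hexamer, TGCCGC or GGCCGC, was in 6 (*Dazl*, *Ddx4*, *Sycp1*, *Tex101*, *Tdrd1* and *Asz1*) and in 45.2% of the windows of tested genes. All words were searched on both strands, and some places share bases, such as the overlapping GGCCGC matches of *Ddx4*. A match in a window was not a measurement of binding or methylation, neither of which was analysed here.

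**Figure D1:**
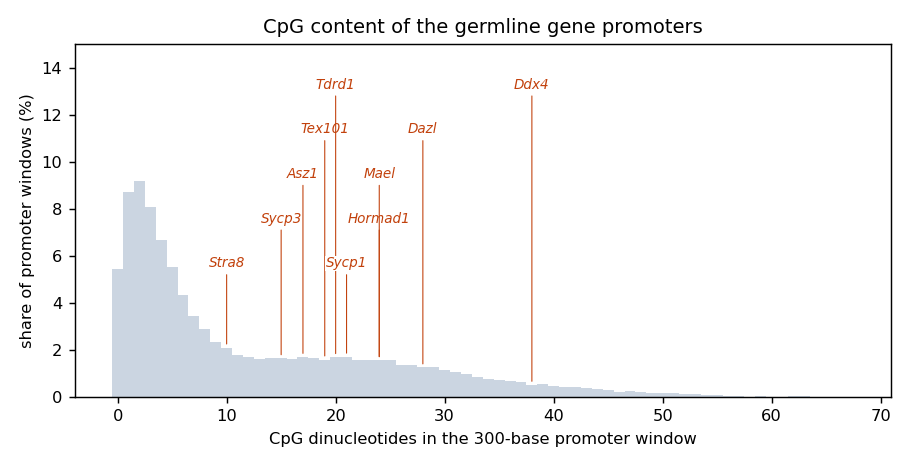
Share of all RefSeq promoter windows (y axis, percent of 32841 windows) by the number of CpG dinucleotides in the 300 bases (x axis), with the germline genes marked. *Stra8* holds 10 CpGs and *Ddx4* 38, and all 10 genes lie above the median of 7.

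Between genotypes, 8 of the 10 germline genes were higher in *Zfp57*-/- cells, none was lower, *Tex101* did not pass the test and *Asz1* had too few counts to be tested. Together the 10 genes had 7 and 8 counts in the wild-type libraries and 314 and 313 in the *Zfp57*-/- libraries. The pooled ratio of their normalized counts was 40.6 (exact 95% counting interval 24.4 to 73.0). Among all 19995 genes tested, 13% were higher in *Zfp57*-/- cells and 27.6% were called in either direction. Of the 2457 tested genes with at most 8 counts over the wild-type libraries, 20.9% were higher. In all 10 genes both *Zfp57*-/- libraries were above both wild-type libraries. For *Asz1* this rested on 1 count in wild-type replicate 2 against 1 in *Zfp57*-/- replicate 1 (0.0955 and 0.107 CPM), which differ only by library size. The same order was found for 33.7% of all tested genes. That share is not a like background, since most tested genes did not depend on *Zfp57*-/- counts to pass the count filter, and *Asz1* is not among them. The median fitted log2 difference of the 9 tested germline genes was 6.38 (3.14 with the genes at 0 in wild-type set to their bound). Over all tested genes it was -0.01, which is not a like background. Each of the 9 had at most 8 counts over the wild-type libraries and passed the count filter only through its *Zfp57*-/- counts.

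**Figure D2:**
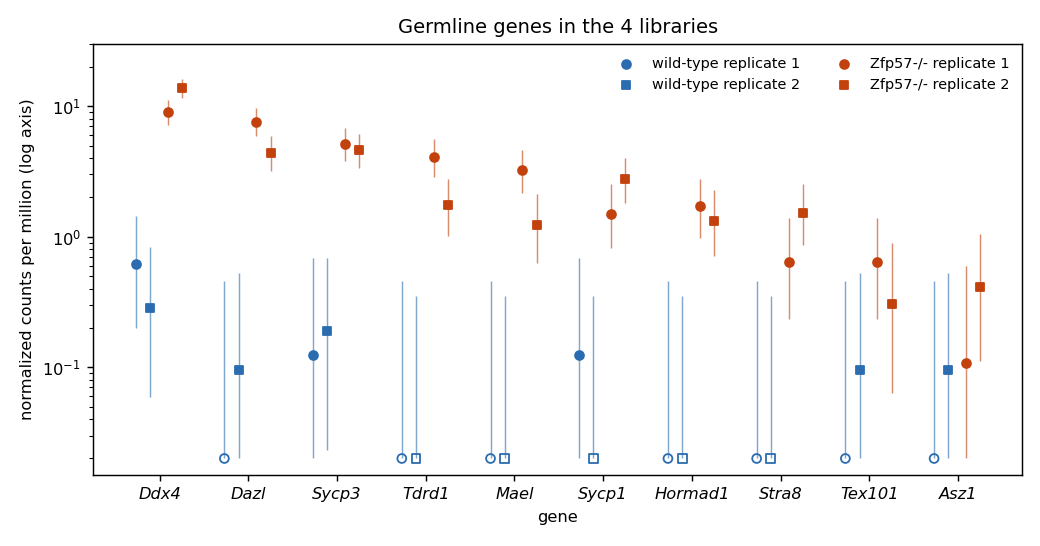
TMM-normalized CPM (y axis, log scale) of each germline gene (x axis) in the 2 wild-type and 2 *Zfp57*-/- libraries, with exact Poisson 95% intervals that cover counting error only. Open symbols at the bottom mark libraries with 0 counts and lines that reach the bottom are cut there. In each of the 10 genes both *Zfp57*-/- points lie above both wild-type points, with intervals that overlap between genotypes for *Stra8*, *Tex101* and *Asz1*.

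The genes of germ cell RNA control had the most counts. *Ddx4* (ENSMUSG00000021758.14, chromosome 13, 112598333 to 112652475, minus strand), an RNA helicase also known as VASA, was counted 5 and 3 times in the wild-type and 84 and 134 times in the *Zfp57*-/- libraries. It was the gene with the highest count in each wild-type library and made 34.8% of all germline counts in the *Zfp57*-/- libraries. Its normalized level was 0.453 ± 0.235 CPM in wild-type and 11.4 ± 3.31 in *Zfp57*-/- cells (SD, n = 2 libraries each), a log2 difference of 4.66 ± 0.54 (SE, edgeR quasi-likelihood test, adjusted p = 0.000212). *Dazl* (ENSMUSG00000010592.9, chromosome 17, 50279395 to 50293636, minus strand), an RNA-binding protein needed for germ cell development, was counted 0 and 1 times against 71 and 43. The wild-type libraries were thus at or below the floor and the *Zfp57*-/- libraries far above it. The pooled ratio of *Dazl* was 111 with a counting interval of 19.5 to 4411 (edgeR adjusted p = 0.000597), so that its upper limit was not set at this depth.

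All 3 genes of the meiotic chromosome axis and synaptonemal complex were higher. *Sycp3* (ENSMUSG00000020059.9, chromosome 10, 88459569 to 88473236, plus strand), which builds the axis, was counted 1 and 2 times in wild-type, against 48 and 45 times in *Zfp57*-/- cells. It was the most even of the genes between the mutant libraries, at 5.15 and 4.60 CPM, and the pooled ratio was 30.1 (counting interval 9.99 to 149, edgeR adjusted p = 0.000878). *Sycp1* (ENSMUSG00000027855.13, chromosome 3, 102818499 to 102936100, minus strand), the transverse filament that joins paired axes, was counted 1 and 0 times against 14 and 27. Its pooled ratio was 39.8 (counting interval 6.76 to 1611, edgeR adjusted p = 0.00909). *Hormad1* (ENSMUSG00000028109.14, chromosome 3, 95559677 to 95587671, plus strand), an axis protein that marks unpaired chromosomes, was counted 0 times in both wild-type libraries and 16 and 13 times in the mutant ones. It was at least 4.63-fold higher, measured against 3 counts in each wild-type library (edgeR adjusted p = 0.00878).

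Of the 3 piRNA pathway genes, *Tdrd1* and *Mael* were higher and *Asz1* could not be tested. *Tdrd1* (ENSMUSG00000025081.13, chromosome 19, 56826209 to 56870012, plus strand), a Tudor domain scaffold that binds PIWI proteins, had 0 counts in both wild-type libraries and 38 and 17 in *Zfp57*-/- cells. This was at least 8.84-fold higher (edgeR adjusted p = 0.00361). *Mael* (ENSMUSG00000040629.8, chromosome 1, 166201201 to 166238747, minus strand), a nuage protein required for transposon repression, had 0 counts in both wild-type libraries and 30 and 12 in the mutant ones, at least 6.76-fold higher (edgeR adjusted p = 0.00652). Both genes were clearly above the floor in each mutant library. *Asz1* (ENSMUSG00000010796.11, chromosome 6, 18050964 to 18109061, minus strand), an ankyrin repeat protein of the same compartment, had 0 and 1 counts in the wild-type libraries, against 1 and 4 in *Zfp57*-/- cells. Its total of 6 was under the minimum for testing, and its pooled ratio of 4.86 had a counting interval from 0.543 to 230, which includes no difference. A change of *Asz1* was not detectable at this depth.

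*Stra8* and *Tex101* had the fewest counts of the genes that were tested. *Stra8* (ENSMUSG00000029848.11, chromosome 6, 34920163 to 34939344, plus strand), which is induced by retinoic acid and starts meiosis, had 0 counts in both wild-type libraries and 6 and 15 in *Zfp57*-/- cells. It was at least 3.31-fold higher (edgeR adjusted p = 0.0209). The call rested on *Zfp57*-/- replicate 2, since without it the gene had 6 counts in all and was no longer tested. *Tex101* (ENSMUSG00000062773.6, chromosome 7, 24668007 to 24676675, minus strand), a surface protein of male germ cells, had 0 and 1 counts against 6 and 3. Its pooled ratio was 8.74 (counting interval 1.21 to 383) and its log2 difference of 2.88 ± 1.41 (SE) had an edgeR adjusted p of 0.160. Only 1 of its *Zfp57*-/- libraries was above the floor of 3 counts.

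Per length, *Sycp3* and *Ddx4* lay near the middle of the tested genes in *Zfp57*-/- cells, and the other germline genes lay lower. As normalized counts per exon length and library size (FPKM, on the exon lengths of the deposited table), the mean level in *Zfp57*-/- cells was 3.86 ± 0.31 for *Sycp3* and 3.77 ± 1.10 for *Ddx4*. These were above 54.9% and 54.5% of the tested genes in the same libraries. *Dazl* followed at 1.57 ± 0.60, *Mael* at 1.28 ± 0.81 and *Hormad1* at 0.881 ± 0.159. *Stra8* had 0.604 ± 0.349, *Sycp1* 0.599 ± 0.250, *Tdrd1* 0.534 ± 0.304, *Tex101* 0.287 ± 0.144 and *Asz1* 0.0912 ± 0.0754 (SD, n = 2 for each). The ranges of neighbours in this order overlapped except between *Ddx4* and *Dazl* and between *Tex101* and *Asz1*. The 10 levels summed to 11.5% of that of the pluripotency factor *Pou5f1*, which was 118 FPKM in the same libraries.

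The germline genes did not differ in the same direction between the mutant libraries. The normalized level in *Zfp57*-/- replicate 1 was 1.73 times that in replicate 2 for *Dazl* (exact counting interval 1.17 to 2.60), 2.63 times for *Mael* (1.31 to 5.63) and 2.35 times for *Tdrd1* (1.29 to 4.44). For *Ddx4* it was 0.658 times (0.495 to 0.871). In the other 6 genes the interval included equality. These intervals compare the libraries and cover counting error only.

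Of the 20 nearest tested genes on either side of the germline genes, 1 was higher, 3 were lower and 16 did not pass the test, with a median log2 difference of -0.07. Of all tested genes, 27.6% were called in either direction. *Golph3l*, a Golgi protein gene 1.26 kb from *Hormad1*, had a log2 difference of -0.02 ± 0.20 (SE, edgeR adjusted p = 0.942). *Gm3226*, 3.25 kb from *Ddx4* on the same strand, had -0.06 ± 0.25 (edgeR adjusted p = 0.882), and *Vwa2*, 4.24 kb from *Tdrd1*, had 0.01 ± 0.49 (edgeR adjusted p = 0.989). The neighbours of *Mael* both passed the test, in opposite directions. *Gpa33*, a cell surface antigen gene 34.7 kb away, was counted 1 and 4 times in wild-type, against 68 and 65 times in *Zfp57*-/- cells and was higher by 4.65 ± 0.63 on the log2 scale (edgeR adjusted p = 0.000569). *Ildr2*, 15.4 kb away on the other side, was lower, with a log2 difference of -4.49 ± 0.30 (edgeR adjusted p = 9.66e-06). The other neighbours that were lower were *Plcl2* next to *Dazl* (-0.79 ± 0.22) and *Sike1* next to *Sycp1* (-0.62 ± 0.19), against the rise of the germline genes. *Chpt1* overlaps *Sycp3* on the opposite strand and was counted 250 and 315 times in wild-type, against 149 and 218 times in *Zfp57*-/- cells. The counting used strand, which is meant to keep its reads apart from those of *Sycp3*, but the separation was not checked. The pseudogene *Sycp1-ps1* had 0 counts in all libraries.

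**Figure D3:**
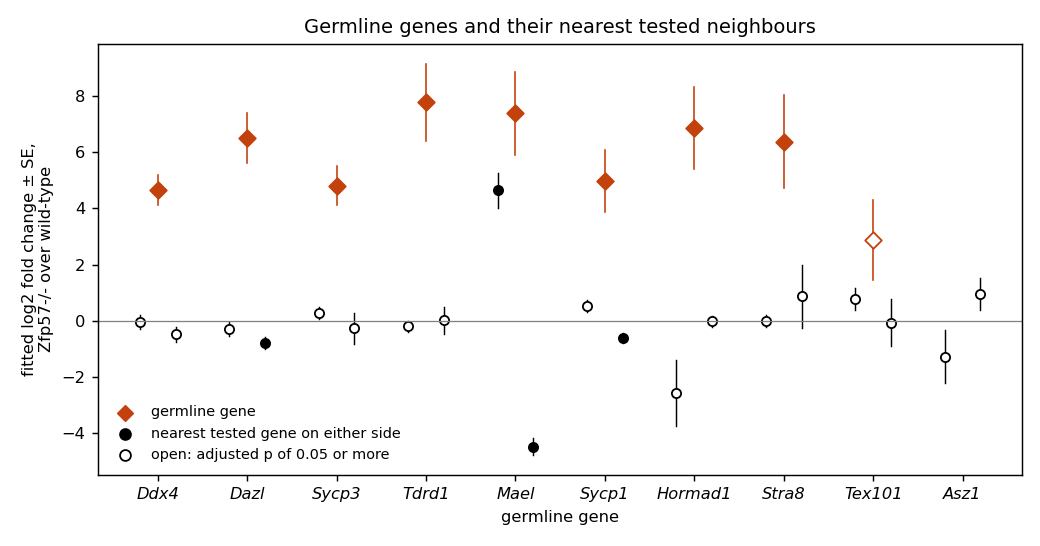
Fitted log2 difference between *Zfp57*-/- and wild-type cells (y axis, ± SE) of each germline gene (diamonds) and of the nearest tested gene on either side (circles), filled where the adjusted p was under 0.05; *Asz1* itself was not tested. The neighbours have a median of -0.07 and lie from -4.49 (*Ildr2*) to 4.65 (*Gpa33*), both beside *Mael*, and 4 of the 20 are filled. Fitted values of genes with 0 counts in wild-type depend on the prior count of the fit.

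Reads that cover a strain difference told the maternal JF1 from the paternal B6 allele. In the *Zfp57*-/- libraries the 10 genes had 306 such counts, 173 of them in *Ddx4*, against 8 in the wild-type libraries. Both alleles were read in 7 of the 10 genes. Pooled over both libraries the JF1 share was 0.395 over the 10 genes and 0.459 without *Ddx4*, beside a median of 0.492 over 11868 genes with at least 20 allelic counts. In *Ddx4* the JF1 counts were 17 and 43 and the B6 counts 51 and 62, a JF1 share of 0.347 (exact binomial 95% interval 0.276 to 0.423). The 15 nearest genes had a median share of 0.501. B6 was the higher allele of *Ddx4* in both libraries, with a share for JF1 of 0.250 and 0.410, and the log2 ratio of JF1 over B6 was -0.96 ± 0.33 (SE, edgeR adjusted p = 0.0198). Of the 7 germline genes that could be tested, *Ddx4* alone passed, where 20.2% of all 13280 genes tested did. This call was lost in DESeq2, where the log2 ratio was as large (-1.02, adjusted p = 0.291), and without *Zfp57*-/- replicate 1 (-0.53, edgeR adjusted p = 0.407). With 1 mutant library left, the spread came from the wild-type libraries.

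*Tdrd1* had more JF1 counts in both libraries, 19 and 10 against 9 and 3 for B6, a share of 0.707 (0.545 to 0.839), with an edgeR adjusted p of 0.265. *Dazl* had 0 and 5 JF1 counts against 15 and 7 for B6, a share of 0.185 (0.0630 to 0.381). Its adjusted p was 0.152 in edgeR. Without *Zfp57*-/- replicate 2 it was 0.0267, but this set 0 against 15 counts of 1 library, with the spread again taken from the wild-type libraries. The libraries disagreed for this gene, since only replicate 2 held JF1 reads. *Sycp3* had a share of 0.280 (0.121 to 0.494) over 25 counts (edgeR adjusted p = 0.412). *Hormad1*, *Sycp1* and *Mael* rested on 12, 11 and 10 allelic counts, with intervals that all included equal use. *Asz1* and *Stra8* had 3 allelic counts each, all from B6, and *Tex101* had 1 from JF1, too few to bound the share of the other allele. *Mael* lies on chromosome 1, where the median JF1 share was 0.620 in *Zfp57*-/- and 0.488 in wild-type cells, while its 15 nearest genes had 0.485.

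**Figure D4:**
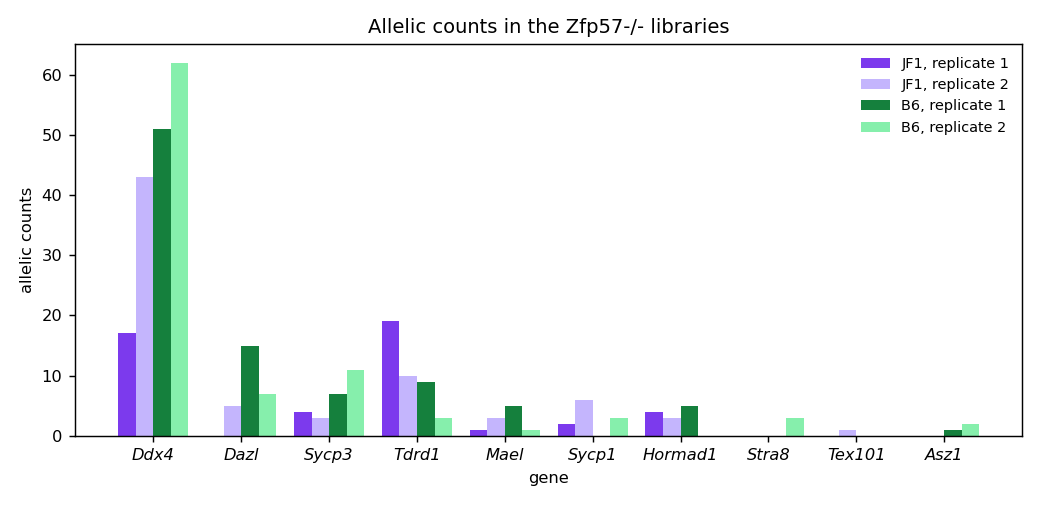
Allelic counts (y axis) of each germline gene (x axis) from the JF1 and B6 alleles in the 2 *Zfp57*-/- libraries. *Ddx4* holds 173 of the 306 counts, with B6 above JF1 in both libraries, *Tdrd1* has JF1 above B6 in both, and *Asz1*, *Stra8* and *Tex101* have at most 3 counts in all.

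Other genes of meiosis and of the piRNA pathway were called higher at shares above the 13% of all tested genes. Several of them had few wild-type counts and passed the count filter only through the *Zfp57*-/- libraries. Among tested genes with at most 8 wild-type counts, 20.9% were higher. Of 30 further genes of meiotic chromosomes and recombination, 25 were tested, of which 12 were higher, 1 was lower and 12 did not pass, with a median log2 difference of 1.34. With *Actb* as the scale 5 were higher. *Hsf2bp*, a meiotic recombination factor, was counted 7 and 13 times in wild-type, against 136 and 136 times in *Zfp57*-/- cells (log2 difference 3.72 ± 0.40, edgeR adjusted p = 0.000127). *Meioc*, which keeps germ cells in meiotic prophase, went from 2 and 4 counts to 77 and 69, *Dmc1*, the meiotic recombinase, from 7 and 4 to 92 and 66, and *Syce1*, of the synaptonemal complex, from 22 and 47 to 162 and 198. The gene that was lower, named after its values were seen, was *Prdm9*, the methyltransferase that marks recombination hotspots, with 162 and 127 counts in the wild-type libraries, against 68 and 77 in *Zfp57*-/- cells (log2 difference -1.08 ± 0.32, edgeR adjusted p = 0.0325). This call was lost when either of the *Zfp57*-/- libraries was left out, and 2 and 3 genes of the list were lower without wild-type replicates 1 and 2.

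Of 19 further piRNA and nuage genes, 15 were tested, of which 7 were higher and 1 was lower, with a median log2 difference of 3.02. *Rnf17*, a Tudor domain protein, was counted 2 and 8 times in wild-type, against 656 and 479 times in *Zfp57*-/- cells (log2 difference 6.77 ± 0.41, edgeR adjusted p = 5.11e-06). Its counts in the mutant libraries were above those of any of the 10 genes. *Piwil2*, a PIWI protein, went from 1 and 2 counts to 72 and 64, and *Tdrd5* from 5 and 19 to 163 and 124. *Tdrkh*, a mitochondrial partner of PIWI proteins, was lower, at 171 and 198 counts against 28 and 31 (log2 difference -2.69 ± 0.30, edgeR adjusted p = 0.000167). The E-box CACGTG was in 4 of the 22 windows matched to the meiotic list (18.2%) and in 5 of the 14 of the piRNA list (35.7%), beside 60% of the 10 genes. It was in 13.8% of the windows of all genes that were higher, 7.42% of those that were lower and 9.33% of the tested genes that did not pass. Within the piRNA list it was in 2 of 5 windows of genes that were higher and in 2 of 5 of those that did not pass, and within the meiotic list in 2 of 10 and 0 of 8. Among genes with too few counts to be tested it was in 1 of 3 windows of the piRNA list and in 2 of 3 of the meiotic list.

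**Figure D5:**
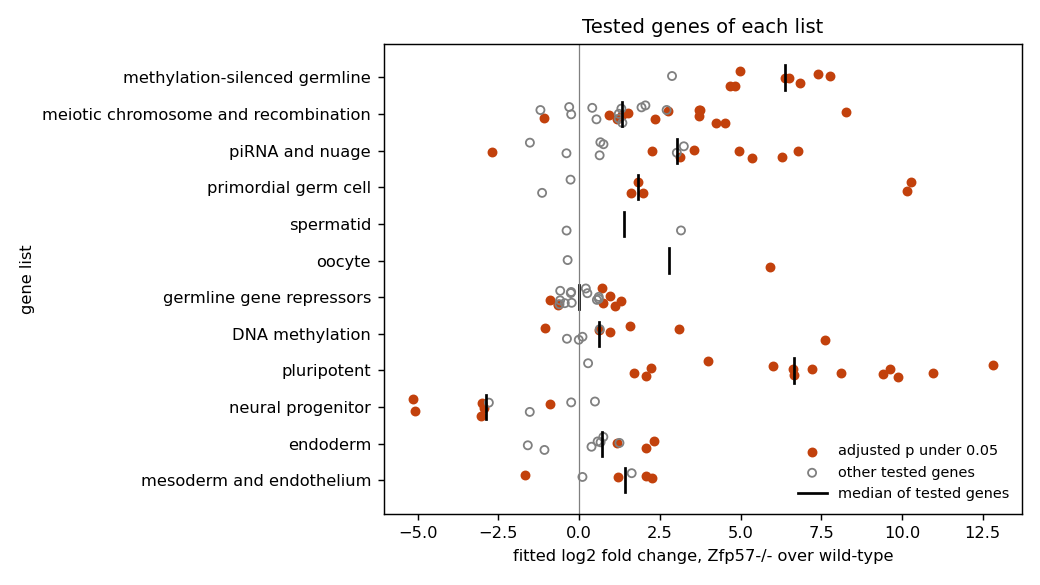
Fitted log2 difference between *Zfp57*-/- and wild-type cells (x axis) of each tested gene of the lists (y axis), filled where the adjusted p was under 0.05, with the median of each list as a bar. The methylation-silenced germline genes all lie above 0, with a median of 6.38, but each passed the count filter only through its *Zfp57*-/- counts. The pluripotency genes lie above 0 with a median of 6.66, and the neural progenitor genes have a median of -2.87.

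Markers of germ cells themselves were divided. Of 8 primordial germ cell markers 7 were tested, and 5 were higher and none lower (2 higher with *Actb* as the scale, and 1 lower without wild-type replicate 1). *Dppa3* and *Prdm14*, which pluripotent cells also express, had 0 counts in both wild-type libraries and 171 and 145, and 162 and 125, counts in *Zfp57*-/- cells. *Prdm1* and *Tfap2c*, factors of germ cell specification, had log2 differences of 1.99 ± 0.31 and 1.601 ± 0.37 (edgeR adjusted p = 0.0013 and 0.0109). *Dnd1*, the remaining marker called higher, had 7 and 10 counts in wild-type, against 32 and 30 in *Zfp57*-/- cells (log2 difference 1.82 ± 0.58, edgeR adjusted p = 0.0431). *Nanos3*, which has a role in germ cell survival, did not pass, with a log2 difference of -1.15 ± 0.94 (edgeR adjusted p = 0.400). *Nanos2* had 0 and 3 counts in wild-type and 0 in both *Zfp57*-/- libraries, too few to be tested. The summed level of the list, most of it *Kit*, was 271 and 378 CPM in wild-type, against 317 and 358 in *Zfp57*-/- cells, so these ranges overlapped. Of 10 spermatid genes, 6 had 0 counts in all 4 libraries, the defining *Prm1*, *Tnp1* and *Tnp2* among them, and the list summed to 1.24 to 1.43 CPM. The spermatid genes with the highest levels, *Zpbp* and *Izumo1*, did not pass the test (edgeR adjusted p = 0.736 and 0.107). Of 9 oocyte genes, 2 were tested, *Zp3* (0 and 0 against 11 and 4 counts, edgeR adjusted p = 0.038) and *Gdf9* (edgeR adjusted p = 0.677), and *Zp2* and *Oosp1* were at 0 throughout. The call of *Zp3* was lost in DESeq2, with *Actb* as the scale, where 10 counts in 2 libraries were required, and without *Zfp57*-/- replicate 1. The part of any germ cell in these results was not tested.

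The genes that silence germline promoters were expressed in both genotypes. Of 20 repressor genes, all tested, 5 were higher, 3 were lower and 12 did not pass, with a median log2 difference of -0.01. These counts depended on scale and libraries: with *Actb* as the scale 0 were higher and 1 was lower, without *Zfp57*-/- replicate 1 they were 2 and 0, without replicate 2 3 and 0, and without wild-type replicate 2 9 and 7, while 10 were lower without wild-type replicate 1. Of the repressors named above, *Mga* (0.71 ± 0.22, edgeR adjusted p = 0.0375) and *Pcgf6* (0.75 ± 0.21, edgeR adjusted p = 0.0249) were higher, while *E2f6* (-0.26 ± 0.21, edgeR adjusted p = 0.383) and *Max* (0.55 ± 0.22, edgeR adjusted p = 0.0916) did not pass. *L3mbtl2* and *Rybp*, of the Polycomb complex that carries PCGF6, were higher by 1.29 ± 0.22 and 1.10 ± 0.21 on the log2 scale (edgeR adjusted p = 0.00206 and 0.00452), and so was *Wdr5* (0.95 ± 0.23, edgeR adjusted p = 0.0125). *Ring1*, a ubiquitin ligase of Polycomb complexes, was lower (-0.89 ± 0.23, edgeR adjusted p = 0.0176). Of 10 genes of DNA methylation, 5 were higher and 1 was lower. The higher ones numbered 2 with *Actb* as the scale and 3 when either of the *Zfp57*-/- libraries was left out, and the lower ones 0 without *Zfp57*-/- replicate 1, 2 without wild-type replicate 1 and 3 without wild-type replicate 2. *Dnmt3l*, the cofactor of de novo methylation, went from 2 and 8 counts to 1031 and 999 (log2 difference 7.60 ± 0.35, edgeR adjusted p = 1.75e-06), and *Dnmt3b*, a de novo methyltransferase, from 196 and 324 to 2018 and 2449. *Tet1*, a methylcytosine oxidase, was higher (1.57 ± 0.20, edgeR adjusted p = 0.000407) and *Tet3* of the same family was lower (-1.05 ± 0.19, edgeR adjusted p = 0.00341).

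The other marker lists did not all go the way of the germline genes. The pluripotency genes *Pou5f1* (1 and 6 against 2747 and 2286 counts), *Esrrb* (14 and 31 against 2267 and 2290), *Klf2* (4 and 7 against 889 and 824) and *Tdgf1* (0 and 2 against 2301 and 2301) were among those that were higher. *Hes5*, *Fabp7*, *Pax6* and *Sox1*, of neural progenitors, were lower, with log2 differences between -5.16 and -2.95, and the list summed to 1106 and 1123 CPM against 1496 and 1752 in wild-type. Of 10 endoderm genes, 3 were higher (*Cubn*, *Dab2* and *Amn*) and 7, *Ttr* included, did not pass (1 higher with *Actb* as the scale or without *Zfp57*-/- replicate 2, and 7 without wild-type replicate 2), with sums of 448 and 697 CPM in wild-type, against 814 and 1152 in *Zfp57*-/- cells. Of 6 mesoderm and endothelium genes, *T*, *Pecam1* and *Tek* were higher and *Kdr* was lower (1 higher with *Actb* as the scale, and 2 lower without wild-type replicate 1), with sums of 106 and 144 against 218 and 257. The part of these cell types in the levels of the germline genes was not tested.

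Over the 4 libraries, the genes whose pattern was nearest to that of *Ddx4* were *Msc* (6, 4, 90 and 107 counts), *Dmrt1* (4, 2, 124 and 119) and *B3gnt3* (4, 6, 93 and 100), in the order wild-type 1 and 2 and *Zfp57*-/- 1 and 2. Their distances from *Ddx4* in log2(CPM + 0.5) were 0.396, 0.616 and 0.643. *Dmrt1* is a transcription factor of the gonad and the germline, *Msc* a basic helix-loop-helix factor and *B3gnt3* a glycosyltransferase.

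The scale of the fit changed the background and not the calls of the germline genes. When *Actb* set the scale, the median log2 difference of all genes moved to -0.68, and the calls split into 486 higher and 2994 lower (13.97% higher) in place of 2607 and 2915 (47.2% higher). The same 8 germline genes passed the test on that scale, at least 4.64 above that median on the log2 scale. *Stra8* and *Sycp1* were then close to the threshold (edgeR adjusted p = 0.0436 and 0.0441). The labels number the replicates, and the paper calls them biological duplicates. Each p-value rests on the spread of 2 libraries per genotype, with the spread of each gene drawn toward that of all genes.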

How the data were processed

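RNA of 2 wild-type and 2 *Zfp57*-/- day 12-JB1 cultures was sequenced as stranded, ribosome-depleted, paired libraries. According to the submitters' processing notes and the paper's methods, the authors used Trimmomatic 0.36 for trimming and STAR 2.5.4a for alignment to GRCm38, and counted fragments over exons by strand with featureCounts (Subread 1.6.0). Both deposited tables hold raw counts per gene, the second split by the authors into JF1 and B6 reads. The deposited exon length, an other numeric column given by the authors in bases, served for FPKM.

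Genes with more than 8 counts over the 4 libraries were tested with edgeR 4.0.16 (R 4.3.3; robust quasi-likelihood test, TMM, Benjamini-Hochberg threshold 0.05). DESeq2 1.42.0, other scalings and filters, a replicate block and leaving out each library were alternatives. Alleles were tested with edgeR on autosomal genes with more than 8 allelic counts over the *Zfp57*-/- libraries, with a term per library. The scripts were tested on simulated data. Replicates differed by more than counting noise (chi-square per degree of freedom 31.2 in wild-type and 6.37 in *Zfp57*-/-). Intervals are exact at 95% and cover counting error only. A fold against 0 counts used 3 counts per library.

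The members, lists, words and naming rule were chosen with earlier results of these data known. The rule named all members, up to 4 genes per list with the smallest adjusted p (or the 2 with the highest level where none passed), each member's neighbours, the 3 genes nearest in pattern to the member with the highest level, and *Zfp57*. Markers at 0, *Chpt1*, *Sycp1-ps1*, *Kit*, *Mga*, *Pcgf6*, *E2f6*, *Max*, *Dnd1*, *Nanos2*, *Nanos3* and *Prdm9* were named after their values were seen. Promoter windows were RefSeq's, and proteins were not used here.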

Additional observations from a re-analysis of the deposited data

How the results depend on the processing

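The count of 8 germline genes higher in *Zfp57*-/- cells held under every alternative run, except that it was 7, without *Stra8*, when 10 counts in at least 2 libraries were required and when *Zfp57*-/- replicate 2 was left out; in both *Stra8* was not tested. Directions of all tested germline genes held in the 94 alternative values computed. These values reuse the same libraries, and the genes had few wild-type counts and passed the filter only through *Zfp57*-/- counts. The alternatives could therefore hardly have shown a reversal. Adjusted p of *Tex101* ranged from 0.0971 to 0.373. With *Actb* as the scale, 3480 of all genes were called, 486 of them higher, and 42 genes of the lists in place of 68. Leaving out each library gave between 2831 and 9947 calls over all genes in place of 5522 (9947 without wild-type replicate 2, 2831 and 2985 without *Zfp57*-/- replicates 1 and 2), between 1280 and 5103 higher genes in place of 2607 (3923 and 5103 without wild-type replicates 1 and 2), and 7 to 8 germline genes; the cause was not tested. Blocking on replicate number gave 6984 calls in all, 8 germline genes and 84 list genes; libraries that share a number had residuals with a correlation of 0.189 (13224 genes), and with 2 pairs the labels give no more than a shared number. Among alleles, the single germline call became 0 in DESeq2, and 0 to 2 when either *Zfp57*-/- library was left out. The log2 JF1 over B6 ratio of *Hormad1* turned from 0.64 to -0.31 without replicate 2, on 12 counts in all. Counts of at most 5 per gene in a wild-type library, and at most 41 allelic counts outside *Ddx4*, limit what could be told.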
